A study of Homo sapiens with 18 samples.

Results

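Nuclear factor kappa B (NF-kB) genes were followed in 3 human prostate cancer lines after knockdown of EMD, which encodes emerin, a protein of the inner nuclear membrane. The set held 42 genes out of 41439 genes listed in any of the 3 deposited tables. They were the 5 NF-kB subunits, their inhibitors and kinases, and target genes that include chemokines and cytokines. Each gene was found by symbol in the DU145 table and by Ensembl gene identifier in the tables of the other lines, by names and not by measured values. The set was chosen with earlier results of these data known. RNA from 18 libraries was sequenced, with 3 control and 3 EMD knockdown libraries of each of C4-2B, 22Rv1 and DU145. C4-2B is a castration-resistant derivative of LNCaP, 22Rv1 was derived from a xenograft that relapsed, and DU145 was derived from a brain metastasis. The medium was RPMI-1640 for the first pair of lines and DMEM for DU145, each supplemented with 10% FBS. By the protocol, control cells received scrambled siRNA and knockdown cells EMD siRNA, both by lipid transfection, and the mix was taken off after 24 h. The DU145 knockdown libraries are named shEMD, a form usual for a hairpin vector, so the reagent in that line is uncertain. Neither a time of harvest nor separate cultures are stated, so p-values measure the spread between these libraries, which may be technical. Each line had its own table and batch label, so line, batch label, table and, for DU145, medium cannot be told apart in any comparison between lines.

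NF-kB is a family of dimeric transcription factors that inhibitor proteins such as IkappaBalpha (NFKBIA) hold in the cytoplasm. Signals from tumour necrosis factor, interleukin-1 or Toll-like receptors activate the IKK kinase complex, which marks the inhibitor for destruction and frees the canonical dimers, while a non-canonical branch through the kinase NIK (MAP3K14) processes the NFKB2 precursor. Freed dimers switch on chemokines, cytokines and survival genes together with their own inhibitors, NFKBIA and TNFAIP3, which shut the signal off again. Among prostate cancer lines, DU145 is known for constitutive NF-kB activity and secretion of IL-6 and IL-8.

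The targeted gene was checked in every library. EMD was at 67.2, 75.1 and 67.3 CPM (the reads of a gene scaled by the TMM-adjusted total of its library) in the C4-2B controls and 8.49, 10.0 and 6.38 CPM in the knockdown libraries, at 65.4, 69.7 and 60.9 against 21.2, 19.6 and 17.5 CPM in 22Rv1, and at 45.1, 47.7 and 40.7 against 4.61, 4.77 and 5.01 CPM in DU145. All labels held against EMD, and the fold change was -3.07, -1.73 and -3.21 on the log2 scale. Library totals ran from 14722733 to 43311727 reads. The epithelial keratin KRT8 averaged 441 CPM in C4-2B controls, 889 CPM in 22Rv1 and 1243 CPM in DU145. Of 15 prostate and epithelial markers, 4 rose and 6 fell in C4-2B (13 tested), 3 rose and 8 fell in 22Rv1 (14 tested), and 2 rose and 6 fell in DU145 (12 tested). Among all tested genes 19.4% rose and 22.3% fell in C4-2B, 33.5% and 34.3% in 22Rv1, and 24.1% and 23.6% in DU145. The summed level of these markers in C4-2B was 6600 to 6650 CPM in controls against 5910 to 5940 CPM after knockdown. It was 3930 to 4090 against 3340 to 3350 CPM in 22Rv1 and 4030 to 4280 against 2140 to 2380 CPM in DU145. KRT8 fell in 22Rv1 (-0.67) and DU145 (-1.63), FOXA1 rose in C4-2B (0.17), 22Rv1 (0.14) and DU145 (0.25), and the adhesion gene CDH1 rose in C4-2B (0.25) and 22Rv1 (0.11) and fell in DU145 (-2.17). Of 13 blood cell markers, 9 in C4-2B and 8 in 22Rv1 were absent from the table or at 0, and their summed level was 4.97 to 6.88 CPM in controls against 3.16 to 3.64 CPM after knockdown in C4-2B and 2.87 to 5.56 against 1.62 to 1.88 CPM in 22Rv1. In DU145 the sum was 95.3 to 96.0 CPM in controls and 29.9 to 32.4 CPM after knockdown, of which CD68 made up 94.1 and 29.3 CPM, while the pan-leukocyte marker PTPRC was at 0.224 and 0.171 CPM. Of 10 fibroblast and endothelial markers the sum was 22.1 to 25.0 against 14.4 to 15.8 CPM in C4-2B, mostly VWF, 2.93 to 3.53 against 0.811 to 1.12 CPM in 22Rv1 and 3.75 to 6.24 against 6.31 to 7.88 CPM in DU145. The part of these markers in the results was not tested. In bulk RNA, fewer cells that express a gene and less RNA per cell cannot be told apart.

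Promoter sequence was available for 34 of the 42 members in the RefSeq table (build GRCh38.p14), as windows of 250 bases before to 50 after a transcription start. Both strands were searched for 2 overlapping NF-kB words, GGGA followed by any 2 bases and TTCC, and GGAATTTCC. At least 1 of them stood in the window of 18 of the 34 members (52.9%), against 2.24% of the 27305 genes in that table. The words were found in 13 of the 19 windowed members that fell in DU145 and 3 of the 7 that rose there. Of those that did not pass in DU145, 2 of 5 held a word. In 22Rv1 the counts were 8 of 13 members that fell, 2 of 5 that rose and 1 of 4 that did not pass. In C4-2B they were 3 of 5 that fell, 2 of 3 that rose and 8 of 15 that did not pass. None of these shares was tested. The 150 bases before the start are shown for the chemokines that lie together on chromosome 4, among them CXCL5, a neighbour that is no member, and for 2 feedback inhibitors, because these genes moved in different directions in DU145. Capitals mark the bases covered by either word on either strand.
CXCL8 (chr4:73740419-73740568, plus strand): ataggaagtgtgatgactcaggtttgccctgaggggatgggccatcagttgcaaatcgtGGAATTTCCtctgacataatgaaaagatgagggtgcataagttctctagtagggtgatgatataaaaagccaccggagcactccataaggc
CXCL1 (chr4:73869243-73869392, plus strand): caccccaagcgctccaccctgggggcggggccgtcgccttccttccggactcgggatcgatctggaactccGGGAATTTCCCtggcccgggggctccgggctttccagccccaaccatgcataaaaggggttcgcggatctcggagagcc
CXCL5 (chr4:73998678-73998827, minus strand): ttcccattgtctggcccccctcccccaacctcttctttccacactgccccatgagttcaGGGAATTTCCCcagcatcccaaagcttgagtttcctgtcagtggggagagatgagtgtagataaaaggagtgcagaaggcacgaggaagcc
CXCL3 (chr4:74038690-74038839, minus strand): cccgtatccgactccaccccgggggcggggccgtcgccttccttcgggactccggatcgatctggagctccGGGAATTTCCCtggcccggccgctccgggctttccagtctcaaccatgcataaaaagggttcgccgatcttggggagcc
CXCL2 (chr4:74099196-74099345, minus strand): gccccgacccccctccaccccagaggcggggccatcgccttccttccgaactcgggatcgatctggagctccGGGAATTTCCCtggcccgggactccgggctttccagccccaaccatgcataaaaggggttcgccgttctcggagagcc
TNFAIP3 (chr6:137867109-137867258, plus strand): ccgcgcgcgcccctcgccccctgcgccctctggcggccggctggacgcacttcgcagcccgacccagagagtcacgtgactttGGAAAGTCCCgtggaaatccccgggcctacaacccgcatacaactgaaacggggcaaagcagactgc
NFKBIA (chr14:35404750-35404899, minus strand): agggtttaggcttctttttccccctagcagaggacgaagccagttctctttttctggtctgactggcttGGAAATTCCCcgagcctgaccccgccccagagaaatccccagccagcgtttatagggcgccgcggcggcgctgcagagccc
CXCL1, CXCL2, CXCL3 and CXCL5 carried the same 11 capital letters, and CXCL8 a 9-base version. A match describes the letters and is not evidence of binding.

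Of the 42 genes, 27 reached a mean of 1 CPM in either arm in C4-2B, 27 in 22Rv1 and 36 in DU145, which is called expressed here. There were 23 expressed in all 3 lines, among them the subunits and inhibitors. The 8 expressed in DU145 but not in the other lines were ligands: CXCL1, CXCL2, CXCL3, IL6, IL18, IL24, CSF2 and LTB. CCL20 and TNF reached 1 CPM in C4-2B alone and PTGS2, the inducible cyclooxygenase, in 22Rv1 alone. CCL2, IL1A and IL1B, which encode the monocyte attractant MCP-1 and both forms of interleukin-1, were expressed in none of the 3 lines. IL1A had 1 read in the 6 DU145 libraries, and IL1B had 17. CCL2 had 57 reads in C4-2B and 9 in DU145. The lowest sum over the 6 libraries of any listed gene was 5 reads in the C4-2B table and 2 in the 22Rv1 table, while the DU145 table also lists genes at 0. For the 7 members absent from the C4-2B table (CXCL1, CXCL3, IL1A, IL1B, IL6, CSF2 and PTGS2) and the 9 absent from the 22Rv1 table (CXCL1, CXCL2, CXCL3, CCL2, CCL20, IL1A, IL1B, IL24 and CSF2) no value is given here. Per kilobase of exon, NFKBIA was the most abundant member in control C4-2B (48.3 CPM per kb) and 22Rv1 (71.2 CPM per kb). The immediate early gene IER3 led in control DU145 with 98.2 CPM per kb, ahead of NFKBIA (68 CPM per kb), the adhesion molecule ICAM1 (51.2 CPM per kb) and the macrophage growth factor CSF1 (32.2 CPM per kb).

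Most tested members were called lower after knockdown in 22Rv1 and DU145, and few in C4-2B. With edgeR's quasi-likelihood test and Benjamini-Hochberg adjustment over all genes tested (threshold 0.05), 23 of 38 tested members fell and 8 rose in DU145, where 23.6% of all tested genes fell and 24.1% rose. In 22Rv1, 19 of 28 fell and 5 rose, against 34.3% and 33.5% of all genes. In C4-2B, 5 of 29 fell and 4 rose, against 22.3% and 19.4%. In either direction 31 members were called in DU145 (47.6% of all genes), 24 in 22Rv1 (67.8%) and 9 in C4-2B (41.7%). The libraries of the 2 arms did not overlap for 29 of the 31 called members in DU145, all but NFKB2 and RELA (54.8% of all genes did not overlap), for 24 of 24 in 22Rv1 (71.0%) and for 9 of 9 in C4-2B (50.5%). These percentages cover all tested genes, called or not, so they cannot be set against counts among called members. The median log2 fold change of the tested members was -0.59 in DU145, -0.61 in 22Rv1 and -0.06 in C4-2B, beside 0.01, 0.00 and 0.01 for all tested genes. Declines of at least 2-fold were called for 13 members in DU145 (4.52% of all genes), 10 in 22Rv1 (14.7%) and 1 in C4-2B (3.72%), and rises of that size for 2 (3.7%), 1 (3.66%) and 1 (2.9%). Some members, such as TNF, PTGS2 and ICAM1 in 22Rv1 and IL6 and IL24 in DU145, passed the read filter only through the arm in which they were high, so these counts are a description and not support for a direction. In 22Rv1 genes of low level fell more often than others: between 1 and 10 CPM 43.8% of all genes fell, with a median of -0.36, as did 8 of the 10 members at that level. With that level-dependent shift removed, 18 members fell and 4 rose. In DU145 22.4% of the genes at that level fell, with a median of 0.02, and 8 of 10 members fell. In C4-2B the genes at that level shifted up, with a median of 0.14. There 15.8% of them rose and 11.2% fell, and 3 of 12 members rose and 0 fell. The plot of fold change by level shows each member beside the median of all genes at its level.

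**Figure D1:**
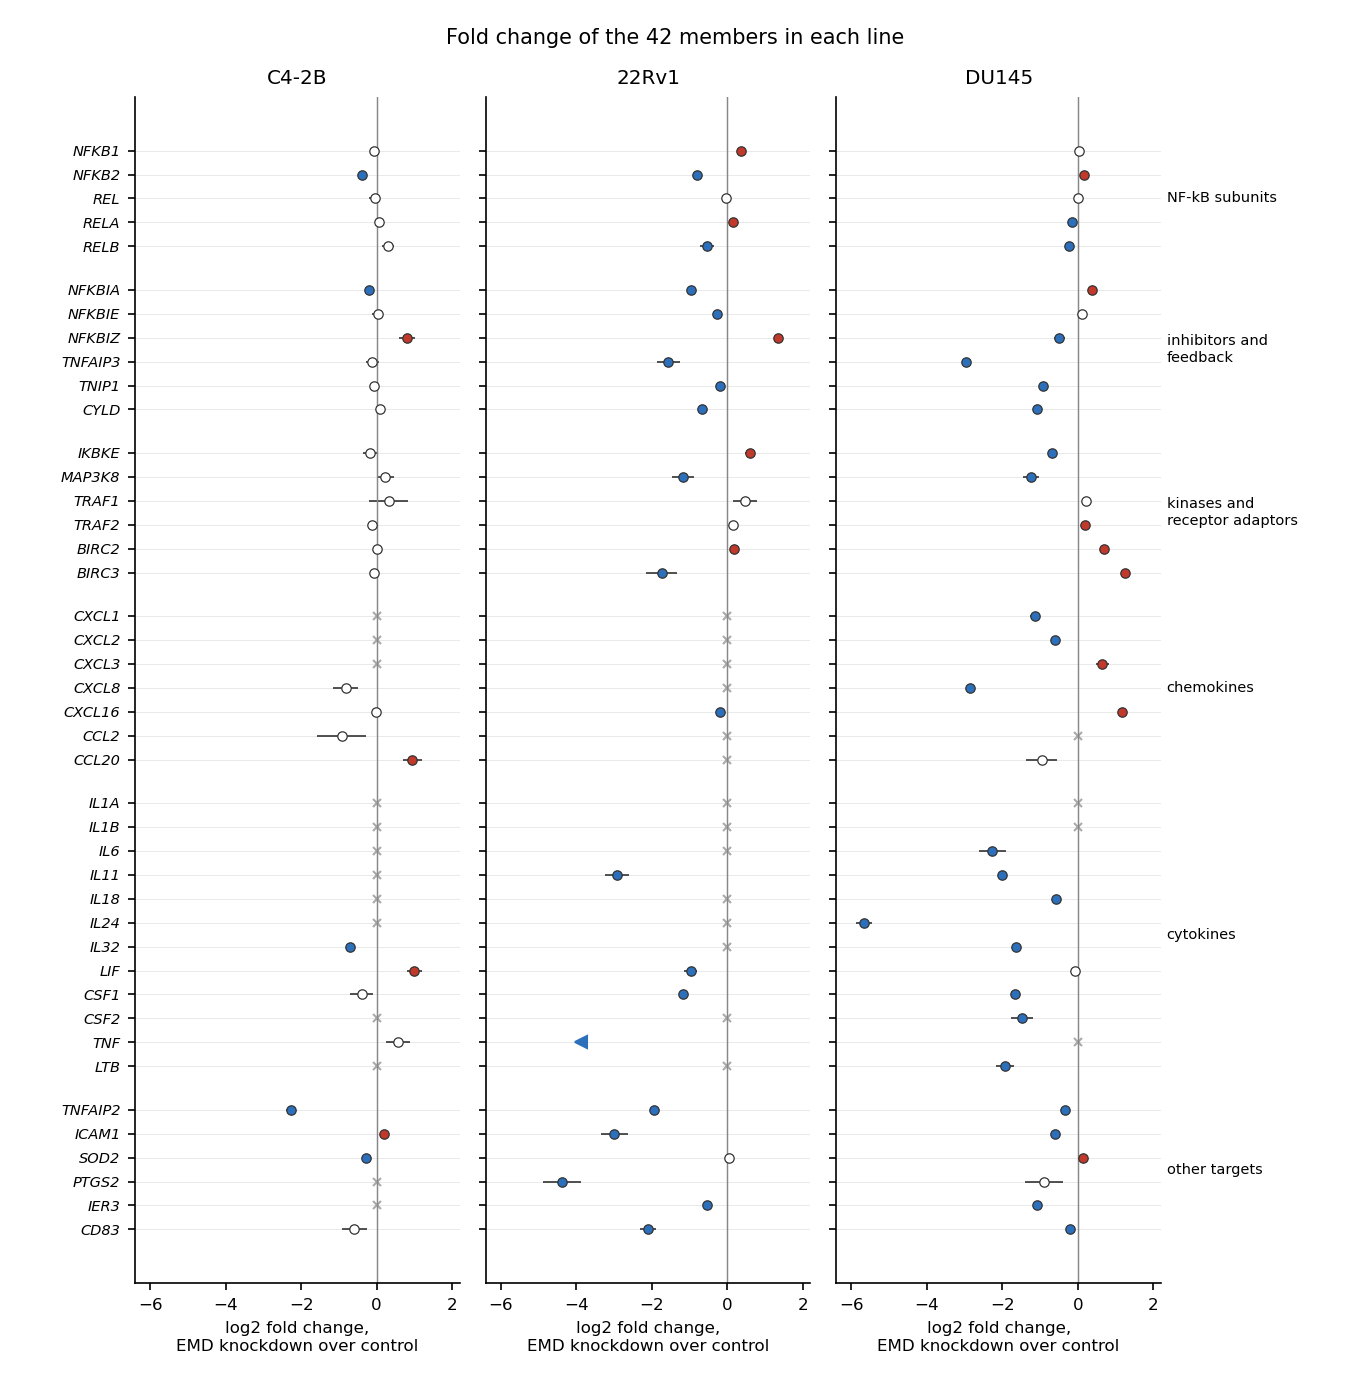
Log2 fold change of each member (knockdown over control, ± SE from edgeR) in the 3 lines, grouped by role; red points rose, blue points fell, open points did not pass, and grey crosses mark genes that were absent or had too few reads. The triangle for TNF in 22Rv1 is an upper bound, since its knockdown libraries held no read, and most points in 22Rv1 and DU145 lie left of 0.

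**Figure D2:**
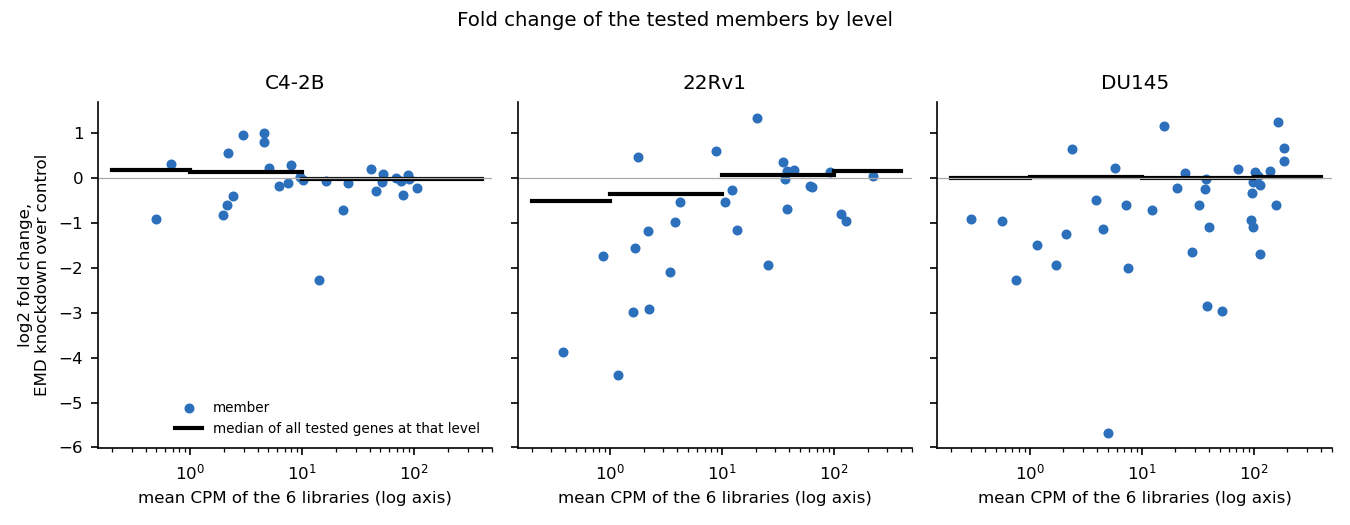
Log2 fold change of each tested member (blue points) against its mean CPM over the 6 libraries of a line on a log axis; black bars are the median of all tested genes at under 1, 1 to 10, 10 to 100 and over 100 CPM. The bars bend down at low level in 22Rv1 (-0.36 at 1 to 10 CPM), bend up in C4-2B (0.14 at 1 to 10 CPM) and stay near 0 in DU145. TNF in 22Rv1 is drawn at its bound.

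Among the subunits, log2 fold changes of called genes ran from -0.81 to 0.36, both in 22Rv1. NFKB1 encodes the p105 precursor of p50, and REL and RELA encode subunits with activating domains. In 22Rv1 NFKB1 stood at 30.7, 29 and 31.7 CPM in controls and 38.3, 40.4 and 39.3 CPM after knockdown and rose by 0.36 ± 0.06 (log2, SE; adjusted p = 3.77e-05). Its knockdown libraries all lay above the controls, whereas the arms overlapped in DU145 (0.04, called only without knockdown 3, adjusted p = 0.0175) and the change did not pass in C4-2B (-0.08). REL did not pass in any line: in DU145 it was at 36.3, 38.6 and 38.3 CPM in controls and 36.9, 35.5 and 40.1 CPM after knockdown. The arms of REL overlapped in all 3 lines, with fold changes of -0.05, -0.03 and -0.01 in C4-2B, 22Rv1 and DU145. RELA in DU145 was at 112, 128 and 120.3 CPM in controls and 105, 113 and 104 CPM after knockdown, a called fall of small size (-0.16 ± 0.05, adjusted p = 0.011) in which the arms overlapped. That call was lost in 5 of 14 alternatives: DESeq2 (adjusted p = 0.0741) and without control 2 (0.0984), control 3 (0.0965), knockdown 1 (0.162) or knockdown 3 (0.0676). In 22Rv1 RELA rose by 0.14, which was lost in 4 of 14: with library totals (adjusted p = 0.239), with the level-dependent shift removed (0.962), without knockdown 3 (0.0733) and in 1 fit of all 18 libraries (0.0908). RELB and NFKB2 form the non-canonical dimer. RELB in DU145 was at 36.2, 43.3 and 39 CPM in controls and 35.5, 35.6 and 29.9 CPM after knockdown (-0.24, adjusted p = 0.0177), and the call was lost without control 2 (adjusted p = 0.0962), control 3 (0.0837) or knockdown 3 (0.0823). It also fell in 22Rv1 (-0.54), which was lost in DESeq2 (adjusted p = 0.0588), with the level-dependent shift removed (0.228) and without control 3 (0.0928). NFKB2 encodes p100, the precursor of p52. Its libraries were at 144, 159 and 142 CPM in 22Rv1 controls and 81.7, 88.2 and 83.4 CPM after knockdown, without overlap (-0.81 ± 0.05, adjusted p = 1.26e-11). In C4-2B it fell by 0.38 on the log2 scale from 90.45 ± 5.45 to 69.6 ± 4.10 CPM (mean ± SD, n = 3 libraries, as below). In DU145 NFKB2 rose slightly (0.15, adjusted p = 0.0359), with overlapping arms, and the call was lost with RLE scaling (adjusted p = 0.0653), in DESeq2 (0.156) and without control 1 (0.139) or knockdown 2 (0.35).

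NFKBIA, the inhibitor that NF-kB itself induces, went down in 2 lines and up in the third. In 22Rv1 it was at 167, 172 and 168 CPM in controls and 87, 82 and 90.6 CPM after knockdown (-0.96 ± 0.04, adjusted p = 1.31e-13). In DU145 it was at 163, 165 and 156 CPM in controls and 206, 222 and 200.2 CPM after knockdown (0.38 ± 0.05, adjusted p = 3.55e-07). The C4-2B controls were at 116, 113 and 115 CPM and the knockdown libraries at 99.98, 100.3 and 96.1 CPM (-0.21, adjusted p = 0.000527). The arms did not overlap in any line, the knockdown libraries were the lower ones in 22Rv1 and C4-2B and the higher ones in DU145, and these 3 calls held in all 14 alternatives. TNFAIP3 encodes A20, a ubiquitin-editing enzyme that terminates NF-kB signalling. In DU145 it fell from 87.4, 99.97 and 91.2 CPM to 12.6, 12.6 and 10.5 CPM (-2.97 ± 0.07, adjusted p = 1.65e-18), 7.84-fold lower. In 22Rv1 it fell at a much lower level, from 1.95, 2.75 and 2.87 CPM to 0.770, 0.979 and 0.824 CPM (-1.56 ± 0.30, adjusted p = 0.000117). The knockdown libraries lay below every control in both lines, while in C4-2B the arms overlapped (-0.11). Of the other negative regulators among the members, CYLD and TNIP1 fell in both DU145 and 22Rv1. CYLD, a deubiquitinase that opposes NF-kB, was at 52.3, 56.3 and 54.9 CPM in DU145 controls and 26.3, 26.4 and 25 CPM after knockdown (-1.08, adjusted p = 3.01e-15) and fell by 0.68 in 22Rv1. TNIP1, an A20-binding protein, went from 124 ± 5.97 to 65.1 ± 1.99 CPM in DU145 (-0.93) and fell by 0.18 in 22Rv1. NFKBIE, another IkappaB, fell in 22Rv1 (-0.27, adjusted p = 0.0301), and did not pass in C4-2B or DU145. Its call in 22Rv1 was lost in 6 of 14 alternatives, with adjusted p from 0.0542 to 0.28, which were DESeq2, the level-dependent shift removed, and leaving out control 1, control 2, knockdown 1 or knockdown 3. Its change in DU145 passed with library totals (adjusted p = 0.0487) and without knockdown 3 (0.00427). NFKBIZ encodes IkappaBzeta, a nuclear co-regulator of secondary targets. Its 22Rv1 libraries were at 11.2, 10.9 and 12.3 CPM in controls and 26.15, 31.4 and 30.8 CPM after knockdown (1.35 ± 0.09, adjusted p = 9.15e-11), the largest rise of any member there. In C4-2B it rose by 0.80 and in DU145 it fell by 0.49 from 4.62 ± 0.787 to 3.24 ± 0.288 CPM, a call that was lost without knockdown 1 (adjusted p = 0.0548) or control 3 (0.0595).

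**Figure D3:**
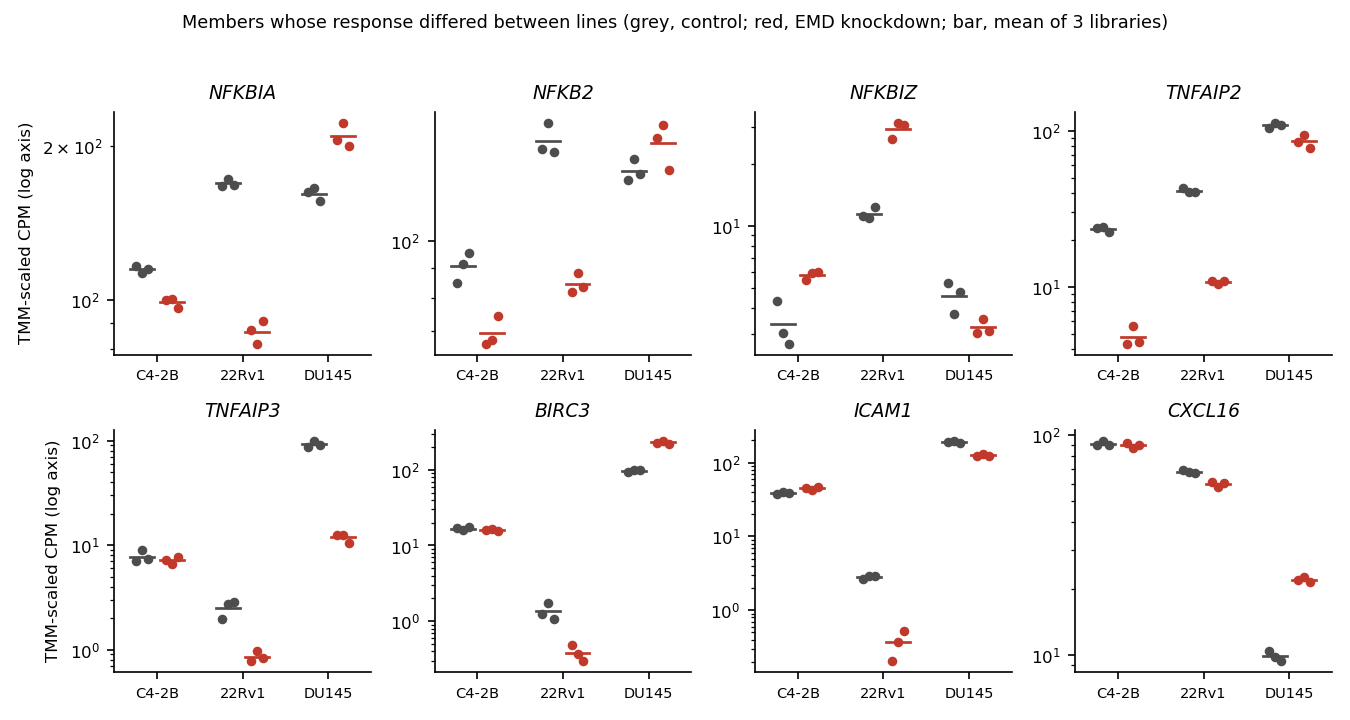
TMM-scaled CPM on a log axis in every control (grey) and EMD knockdown (red) library of the 3 lines for 8 members, with bars at the mean of 3 libraries. NFKBIA and NFKB2 lie lower after knockdown in C4-2B and 22Rv1 and higher on average in DU145, NFKBIZ lies the other way, and TNFAIP2 is lower in all 3 lines.

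Kinases and receptor adaptors split by gene. BIRC2 and BIRC3 encode the ubiquitin ligases cIAP1 and cIAP2, which act with TRAF2 at tumour necrosis factor receptors, and lie as neighbours on chromosome 11 with 7.81 kb between them. In DU145 BIRC3 was at 92.2, 101 and 101 CPM in controls and 229, 243 and 221 CPM after knockdown (1.24 ± 0.05, adjusted p = 3.09e-17). BIRC2 rose beside it from 143 ± 5.91 to 229 ± 12.9 CPM (0.68), and TRAF2 rose by 0.20, which was lost without knockdown 2 (adjusted p = 0.104). In 22Rv1 BIRC3 went the other way and from a low level, from 1.23, 1.75 and 1.07 CPM to 0.487, 0.367 and 0.294 CPM (-1.74 ± 0.42, adjusted p = 0.00103), on 98 and 23 reads. BIRC2 rose there by 0.18, which was lost in 6 of 14 alternatives, with adjusted p from 0.0528 to 0.274, among them leaving out control 1 or knockdown 3. TRAF1 did not pass in any line with all libraries, though it passed in 22Rv1 without knockdown 3 (0.73, adjusted p = 0.0424) or with the level-dependent shift removed (0.0337), and in DU145 without control 2 (0.0245) or with library totals (0.0491). TRAF2 in 22Rv1 (0.15) passed without control 2 (0.00794) or knockdown 3 (0.0323), and BIRC2, BIRC3 and TRAF2 did not pass in C4-2B. MAP3K8 encodes TPL2, which links NF-kB1 p105 to the MAP kinase pathway, and fell in 2 lines. Its DU145 libraries were at 3.29, 2.91 and 2.64 CPM in controls and 1.04, 1.402 and 1.29 CPM after knockdown (-1.24 ± 0.21, adjusted p = 1.32e-05). Its 22Rv1 libraries were at 2.87, 3.37 and 2.81 CPM and 1.26, 0.795 and 1.94 CPM (-1.17, adjusted p = 0.00125), with no overlap. IKBKE, a kinase related to IKK, rose in 22Rv1 (0.60, adjusted p = 0.000143) and fell in DU145 (-0.70, adjusted p = 3.23e-08).

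The chemokines diverged within 1 gene cluster in DU145. CXCL8, CXCL1, CXCL3 and CXCL2 attract neutrophils through CXCR1 and CXCR2 and lie within 359 kb on chromosome 4. CXCL8, which encodes interleukin-8, fell from 65.7, 71.5 and 63.5 CPM in controls to 9.83, 9.92 and 8.12 CPM (-2.85 ± 0.07, adjusted p = 7.03e-20), 7.23-fold lower. CXCL1 was at 6.20, 6.07 and 6.35 CPM in controls and 3.10, 2.63 and 2.715 CPM after knockdown (-1.13 ± 0.13, adjusted p = 1.62e-08). Both sets of knockdown libraries lay below all controls. CXCL2 fell from 8.76 ± 0.308 to 5.80 ± 0.273 CPM (-0.60), whereas CXCL3 rose from 1.84 ± 0.2115 to 2.88 ± 0.220 CPM (0.65, adjusted p = 0.00409). Their neighbour CXCL5 is no member but shares the receptor CXCR2 and the promoter word shown above. CXCL5 was at 1.95, 1.60 and 1.66 CPM in controls and 32.7, 33.7 and 30.4 CPM after knockdown (4.24 ± 0.09, adjusted p = 2.42e-23), 18.9-fold higher. Of the 14 listed neighbours on chromosome 4, 11 were tested in DU145, of which 8 rose and 1 (ANKRD17, -0.44) fell, beside 24.1% and 23.6% of all tested genes. The chosen list reached well beyond the 359 kb, from ANKRD17 (first base 73073376) to RCHY1 (last base 75514764). It need not hold every gene there, so the counts do not define a block of adjacent genes. The largest rises after CXCL5 were PARM1 (2.04) and RASSF6 (0.72), and the growth factor gene EREG rose by 0.64. CXCL1, CXCL2 and CXCL3 share 4.81%, 12.5% and 6.01% of their 50-base exon windows with 1 or more of 9 other genes compared. CXCL8 and CXCL5 shared none with the genes compared. The counts of CXCL1, CXCL2 and CXCL3 are therefore uncertain. Other genes were not compared, and the share of reads affected was not measured. In C4-2B CXCL8 was at 2.45, 2.46 and 2.59 CPM in controls and 1.62, 1.01 and 1.64 CPM after knockdown, without overlap, and missed the threshold (-0.82, adjusted p = 0.0504), and 4 of 14 alternatives called it, with adjusted p from 0.00183 to 0.0489. In 22Rv1 CXCL8 had 3 reads in controls and 2 after knockdown. CXCL16, a membrane-bound chemokine for CXCR6 on chromosome 17, was at 10.4, 9.80 and 9.31 CPM in DU145 controls and 21.9, 22.7 and 21.3 CPM after knockdown (1.16 ± 0.07, adjusted p = 1.44e-13). All DU145 knockdown libraries of CXCL16 lay above the controls. It fell in 22Rv1 (-0.19) and did not pass in C4-2B (-0.02). CCL20, the ligand of CCR6, rose in C4-2B from 2.02 ± 0.387 to 3.94 ± 0.163 CPM (0.95, adjusted p = 0.00487), while in DU145 it was under 1 CPM and did not pass (-0.96, adjusted p = 0.0558), though it passed with RLE scaling (0.0482) and with the replicate block (0.02).

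**Figure D4:**
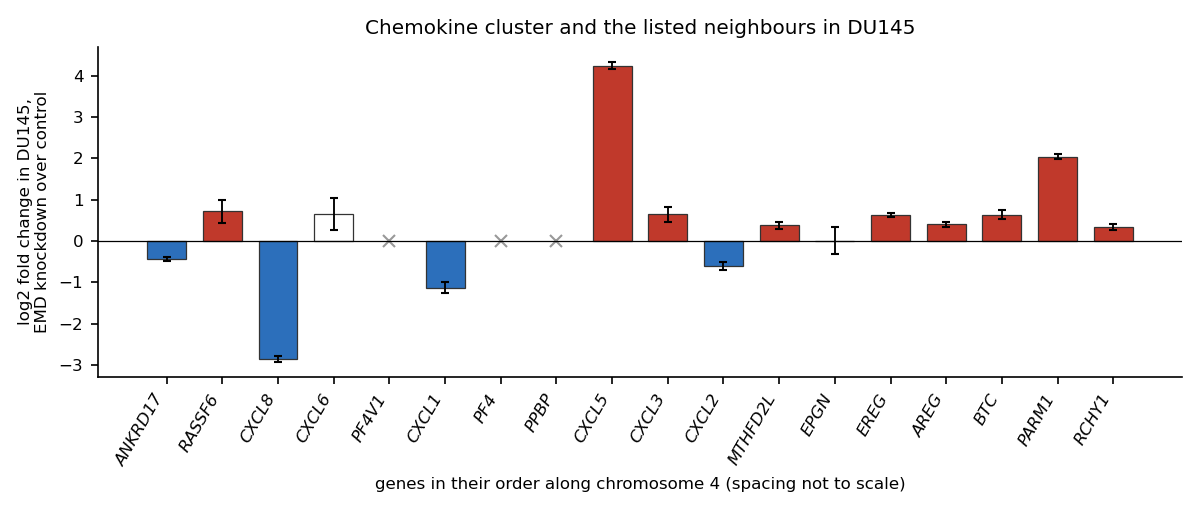
Log2 fold change in DU145 (knockdown over control, ± SE) of the chemokine cluster and its listed neighbours in their order along chromosome 4; red bars rose, blue bars fell, white bars did not pass and crosses had too few reads. CXCL8 (-2.85), CXCL1 (-1.13) and CXCL2 (-0.60) point down among neighbours of which CXCL5 (4.24) and PARM1 (2.04) point up most.

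Of the 12 cytokines among the members, 9 could be tested in DU145. Of these 8 fell, beside 23.6% of all tested genes, and LIF did not pass. Among cytokines outside the set, CLCF1 (0.89) and MIF (0.27) rose in DU145. The largest change was in IL24, an IL-10 family cytokine. Its libraries were at 9.39, 10.8 and 9.17 CPM in controls and 0.192, 0.0701 and 0.280 CPM after knockdown (-5.67 ± 0.21, adjusted p = 2.15e-18), on 956 and 19 reads. CSF1, the macrophage growth factor, was at 171, 179.8 and 173 CPM in controls and 50.9, 58.6 and 53.9 CPM after knockdown (-1.68 ± 0.05, adjusted p = 7.43e-20). IL32, an inducer of other inflammatory cytokines, fell from 42.3, 45 and 40.1 CPM to 14.8, 13.8 and 12 CPM (-1.65 ± 0.07). In all of these the knockdown libraries lay below every control. IL11, an IL-6 family cytokine, went from 12, 12.3 and 11.7 CPM to 3.65, 3.08 and 2.27 CPM (-2.0 ± 0.12, adjusted p = 4.2e-12). IL6 itself went from 1.10, 1.27 and 1.39 CPM to 0.220, 0.280 and 0.280 CPM (-2.27 ± 0.36, adjusted p = 7.05e-06), on 123 and 26 reads. LIF, which acts through the receptor LIFR with gp130, stayed between 94.6 and 104 CPM across the 6 libraries (-0.09, adjusted p = 0.144). LTB encodes lymphotoxin beta, a ligand of the non-canonical branch, and was at 3, 2.77 and 2.40 CPM in controls and 0.687, 0.771 and 0.672 CPM after knockdown (-1.93, adjusted p = 1.3e-07). CSF2, which encodes GM-CSF, went from 1.86, 2.03 and 1.22 CPM to 0.577, 0.596 and 0.644 CPM (-1.48, adjusted p = 0.000137). For IL11, IL6, LTB and CSF2 no knockdown library reached the level of a control. IL18, of the IL-1 family, fell from 38.9 ± 0.972 to 25.8 ± 1.02 CPM (-0.59), the smallest called fall among the cytokines. TNF had 4 reads in controls and 6 after knockdown in DU145.

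**Figure D5:**
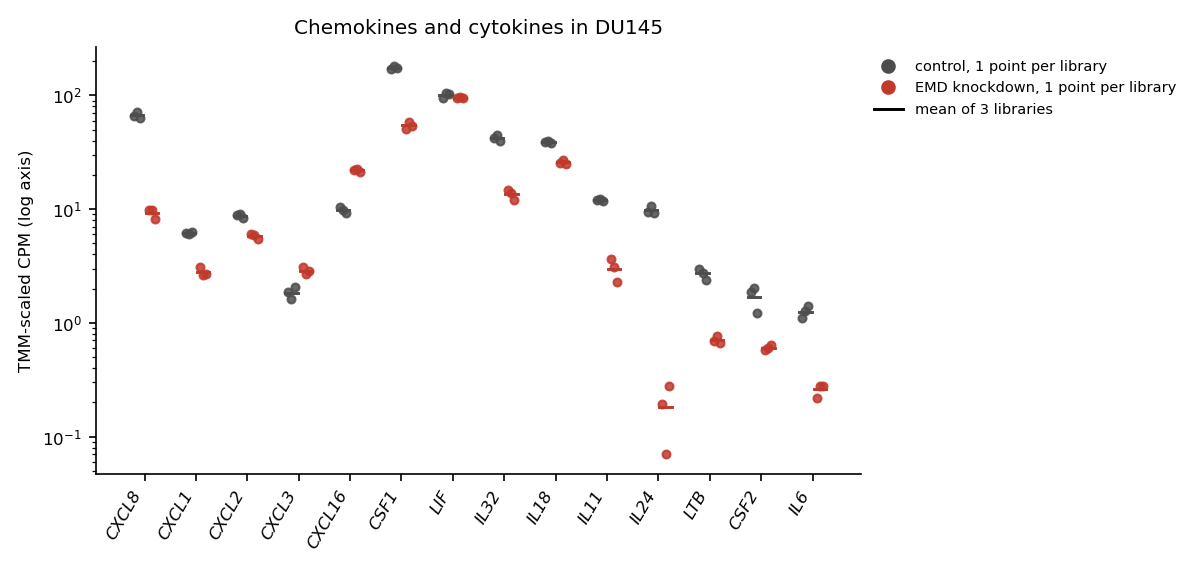
TMM-scaled CPM on a log axis of 14 chemokine and cytokine members in each DU145 library, control in grey and EMD knockdown in red, with bars at the mean of 3 libraries. Red points lie below grey ones for 11 of the genes, above them for CXCL3 and CXCL16, and among them for LIF.

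In 22Rv1 the 4 member cytokines that could be tested all fell, beside 34.3% of all tested genes and 43.8% of those between 1 and 10 CPM. TNF (58 and 0 reads) and IL11 (306 and 30 reads) were testable there through the control arm. TNF was at 0.924, 0.750 and 0.599 CPM in controls and had no read in the knockdown libraries, at least 14.6-fold lower against a floor of 3 reads over those libraries (0.0517 CPM). IL11 was at 4.28, 3.62 and 3.88 CPM in controls and 0.527, 0.245 and 0.765 CPM after knockdown (-2.92 ± 0.31, adjusted p = 4.97e-08), and CSF1 at 18.6, 18.8 and 18.7 against 8.60, 7.22 and 9.30 CPM (-1.16 ± 0.11, adjusted p = 6.05e-09). LIF fell from 5.11 ± 0.4745 to 2.58 ± 0.0707 CPM (-0.97). None of these arms overlapped. LIF went up in C4-2B, where it was at 2.71, 2.88 and 3.52 CPM in controls and 6, 6.48 and 5.95 CPM after knockdown (1.0 ± 0.20, adjusted p = 0.000279). IL32 fell in C4-2B from 28.85 ± 3.46 to 17.7 ± 3.27 CPM (-0.70, adjusted p = 0.000101). TNF and CSF1 did not pass in C4-2B (0.57 and -0.40).

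Among the other targets, TNFAIP2 was the member that fell in all 3 lines, of the 24 members tested in each. The share of all genes that fell in all 3 lines was not counted. TNFAIP2 encodes a protein induced by tumour necrosis factor that takes part in membrane protrusion. In C4-2B it was at 23.7, 24.1 and 22.3 CPM in controls and 4.31, 5.59 and 4.44 CPM after knockdown (-2.28 ± 0.13, adjusted p = 1.87e-13), the largest change of any member in that line. In 22Rv1 it was at 43.1, 40.2 and 40.2 CPM against 10.9, 10.5 and 10.8 CPM (-1.94 ± 0.08, adjusted p = 1.19e-14). In DU145, where its level was highest, it fell from 108 ± 4.52 to 85.45 ± 8.385 CPM (-0.34, adjusted p = 9.3e-05). ICAM1, a leukocyte adhesion molecule, went down in 22Rv1 from 2.67, 2.94 and 2.87 CPM to 0.203, 0.367 and 0.530 CPM (-2.99 ± 0.35, adjusted p = 2.68e-07). It fell in DU145 from 189.8 ± 7.06 to 125 ± 5.11 CPM (-0.60) and rose by 0.20 in C4-2B, a call that was lost without control 1 (adjusted p = 0.0878) or knockdown 3 (0.0772). PTGS2 was expressed in 22Rv1 alone. It was at 2.91, 1.87 and 2.02 CPM in controls and 0.0405, 0.245 and 0.0589 CPM after knockdown (-4.38 ± 0.51, adjusted p = 2.05e-07), on 179 and 6 reads. CD83, an activation marker of dendritic cells, went from 6.02, 6 and 4.57 CPM to 1.26, 1.22 and 1.35 CPM in 22Rv1 (-2.10 ± 0.21, adjusted p = 3.17e-08). The arms of TNFAIP2, ICAM1, PTGS2 and CD83 did not overlap in 22Rv1. The fall of CD83 in DU145 was small (-0.22) and was lost in DESeq2 (adjusted p = 0.066), in 1 fit of all 18 libraries (0.147) and without control 3 (0.0653) or knockdown 3 (0.203). IER3, an apoptosis regulator, was at 136, 136 and 128 CPM in DU145 controls and 65.7, 65.6 and 58.1 CPM after knockdown (-1.08, adjusted p = 1.31e-15) and fell by 0.54 in 22Rv1. SOD2, the mitochondrial superoxide dismutase, fell in C4-2B (-0.29) and rose in DU145 (0.13), where the call was lost with RLE scaling (adjusted p = 0.101), in DESeq2 (0.132), with no filter (0.117) and without knockdown 2 (0.244). Of the 42 members, 12 share exon bases with another annotated gene: REL, RELA, TNFAIP3, CXCL16, IL6, IL32, LIF, ICAM1, SOD2, IER3, IKBKE and CYLD. The partner of REL and at least 1 of the 2 partners of SOD2 lie on the same strand. Strandedness is not given in the sources used here, and reads of a partner may be counted in these 12 genes.

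Responses differed between the lines for many members, as they did for many of all tested genes. The difference itself was tested in 1 edgeR fit of all 18 libraries. Of the 31 members that could be tested, 19 differed between C4-2B and 22Rv1 (56.1% of all tested genes did), 24 between C4-2B and DU145 (45.8%) and 22 between 22Rv1 and DU145 (55.6%). Among members with at least 1 CPM in both lines compared, the largest difference between 22Rv1 and DU145 was in BIRC3 (-2.97 ± 0.27 on the log2 scale, adjusted p = 2.97e-11) and that between C4-2B and 22Rv1 in ICAM1 (3.25 ± 0.23, adjusted p = 9.46e-14). TNFAIP3 differed between all 3 pairs, most between C4-2B and DU145 (2.84). For TNFAIP2 the falls in C4-2B and 22Rv1 did not differ beyond the threshold (-0.29 ± 0.14, adjusted p = 0.0754), a call reached without C4-2B knockdown 2 (0.0192) or 22Rv1 control 1 (0.0468). It fell less in DU145 than in 22Rv1 (-1.66) or C4-2B (-1.94). REL and TRAF1 did not differ beyond the threshold between any pair. Of the 27 members tested in both 22Rv1 and DU145, 11 fell in both, beside 10.3% of the 14482 genes tested in both: RELB, TNFAIP2, TNFAIP3, TNIP1, IL11, CSF1, ICAM1, IER3, CD83, MAP3K8 and CYLD. BIRC2 rose in both (11.7% of all genes did), and 7 went in opposite directions (20.2% of all genes did). RELA, NFKBIZ and IKBKE rose in 22Rv1 and fell in DU145, and NFKB2, NFKBIA, BIRC3 and CXCL16 fell in 22Rv1 and rose in DU145. Of these, the calls of RELA in 22Rv1 and of RELA, NFKBIZ and NFKB2 in DU145 did not hold in all 14 alternatives. The called differences of IL18, LTB and TNF between C4-2B and 22Rv1 rest on few reads. IL18 had 1 and 14 reads in the C4-2B arms and 2 and 0 in 22Rv1, and LTB 2 and 6 against 10 and 1. The same C4-2B reads of IL18 and LTB enter their called differences between C4-2B and DU145. IL11, called between C4-2B and each of the other lines, had 20 and 16 reads in C4-2B. TNF, also called between 22Rv1 and DU145, had 4 and 6 reads in DU145.

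Receptors and kinases upstream of NF-kB were counted from lists chosen for the pathway with earlier results of these data known. The counts are to be read beside the shares of all genes that rose and fell. Those shares were 33.5% and 34.3% in 22Rv1, 24.1% and 23.6% in DU145, and 19.4% and 22.3% in C4-2B. Of 26 receptors and adaptors, 8 rose and 11 fell in 22Rv1 (22 tested), 7 rose and 8 fell in DU145 (25 tested), and 4 rose and 3 fell in C4-2B (22 tested). CD40, a tumour necrosis factor receptor family member, fell in 22Rv1 from 9.77 ± 0.789 to 0.2997 ± 0.260 CPM (-5.19), with TLR5 (-3.34) and TNFRSF1B (-2.33), while the adaptor MYD88 (1.22) and the kinase RIPK1 (1.05) rose. CD40 (747 and 15 reads), TLR5 (177 and 12) and TNFRSF1B (156 and 24) were testable there through the control arm, so their falls are a description only. In DU145 TNFRSF11A, which encodes the receptor RANK, fell from 23.3 ± 1.61 to 2.06 ± 0.303 CPM (-3.51), and RIPK2 (0.70) and MYD88 (0.62) rose. Of 21 kinases and regulators, all tested, 10 rose and 1 fell in 22Rv1, 9 rose and 6 fell in DU145, and 6 rose and 4 fell in C4-2B. MAP3K14, the kinase NIK of the non-canonical branch, rose in DU145 from 63.4 ± 1.37 to 138 ± 2.63 CPM (1.12), while IKBKB, a catalytic kinase of the canonical branch, fell (-0.72). MAP3K14 was the 1 gene of this list that fell in 22Rv1 (-0.40). In C4-2B RBCK1, a subunit of the linear ubiquitin ligase, rose most (0.57).

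Further target, ligand and receptor genes were counted from 3 more lists, chosen in the same way, and differences between lines in these counts were not tested. Of all tested genes, 33.5% rose and 34.3% fell in 22Rv1, 24.1% and 23.6% in DU145, and 19.4% and 22.3% in C4-2B. In 22Rv1 43.8% of the genes between 1 and 10 CPM fell. Some listed genes were testable only through the arm in which they were high. In 22Rv1 these included IL12A (62 and 6 reads), IL34 (68 and 11) and PLAU (122 and 8) through the control arm. IL4I1 (16 and 47 reads) was testable there through the knockdown arm, and CXCL10 in C4-2B (134 and 12) through the control arm. The counts are therefore a description and not support for a direction. Of 20 further NF-kB targets, 2 rose and 7 fell in DU145 (15 tested), 6 rose and 8 fell in 22Rv1 (16 tested), and 4 rose and 2 fell in C4-2B (15 tested). The survival gene BCL2A1 (-1.37) and the ephrin EFNA1 (-0.91) fell in DU145, and the protease gene PLAU fell in DU145 (-0.87) and 22Rv1 (-3.47). SQSTM1, the autophagy adaptor p62, rose in C4-2B (0.80), 22Rv1 (0.67) and DU145 (0.83). Of 25 further ligands, 3 rose and 4 fell in DU145 (14 tested), 1 rose and 8 fell in 22Rv1 (11 tested), and 2 fell in C4-2B (6 tested), where the interferon-induced chemokine CXCL10 went from 2.16 ± 0.754 to 0.247 ± 0.216 CPM (-3.12). The ligand gene TNFSF9 fell in 22Rv1 (-1.16) and DU145 (-1.16), and CLCF1, an IL-6 family cytokine, rose in DU145 (0.89). Of 18 cytokine and chemokine receptors, some of which (CXCR4, OSMR) bind ligands outside the set, 7 could be tested in 22Rv1 and all fell, among them CXCR4 (-4.67), IL6R (-1.87) and IL22RA1 (-1.53). In DU145, 3 rose and 4 fell of 11 tested, with CXCR4 up (1.75) and IL18R1 (-1.0) and OSMR (-0.75) down. In C4-2B, 2 rose and 1 fell of 11 tested. The LIF receptor gene LIFR fell there from 104 ± 4.49 to 47.5 ± 2.165 CPM (-1.13), while LIF itself rose, and CSF2RB rose (2.28).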

How the data were processed

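Human prostate cancer cell RNA-seq was analysed from 3 tables of expected counts per gene, deposited by the authors as whole numbers, 1 table per line. STAR alignment, the GRCh38 build and RSEM 1.3.1 are named in the submitters' processing notes; annotation release and strandedness are not given in the sources used here. Spike-ins and second pseudoautosomal copies in the DU145 table (0.0503% of reads) were left out. Library totals, 14722733 to 43311727 reads, set the counting error.

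SOD2 carries different Ensembl identifiers in the DU145 table and the others and was joined by symbol, using the DU145 entry with more reads. Low genes were removed by filterByExpr (at least 10 reads, total at least 15), libraries were TMM-scaled, and each line was fitted in edgeR 4.0.16 (robust quasi-likelihood F test; R 4.3.3) with Benjamini-Hochberg adjustment at 0.05 over 15801 (C4-2B), 16656 (22Rv1) and 19377 (DU145) genes. Each standard error is the absolute log2 fold change divided by root F. CPM use the TMM-scaled total of tested genes. Lines were compared in 1 fit of 18 libraries over 17153 genes. Gene coordinates and exon lengths are from GENCODE 29, promoters from RefSeq. Fits were tested on simulated data first. Members and other lists were chosen with earlier results of these data known. Values of all 6 libraries are given for members past the threshold at 2-fold without overlap and for the subunits and NFKBIA in at least 1 line; of other lists, at most 3 genes per direction and line. Alternatives were RLE and library-total scaling, DESeq2 1.42.0, other filters, a replicate block, a level-dependent offset, 1 fit of all libraries, and each library left out.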

Additional observations from a re-analysis of the deposited data

Results flagged for a closer look

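Members whose response to EMD knockdown differed between lines, by a test of the difference itself (edgeR, adjusted over 17153 genes), numbered 19 of 31 for C4-2B and 22Rv1, 24 for C4-2B and DU145, and 22 for 22Rv1 and DU145, beside 56.1%, 45.8% and 55.6% of all genes tested. Some members were called in opposite directions in 2 lines. Between C4-2B and 22Rv1 the log2 fold change differed by 2.0 for LIF and 3.25 for ICAM1, both of which rose in C4-2B and fell in 22Rv1.

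Between C4-2B and DU145, NFKBIZ (difference 1.3) and ICAM1 (0.79) rose in C4-2B and fell in DU145. NFKB2 (-0.55), NFKBIA (-0.60) and SOD2 (-0.43) fell in C4-2B and rose in DU145. Between 22Rv1 and DU145, NFKBIZ (1.78), IKBKE (1.24) and RELA (0.24) rose in 22Rv1 and fell in DU145. BIRC3 (-2.97), CXCL16 (-1.41), NFKBIA (-1.4) and NFKB2 (-1.02) fell in 22Rv1 and rose in DU145. Some of the directions named in this section rest on calls that did not hold in all 14 alternatives. These were ICAM1 in C4-2B, RELA in 22Rv1, and NFKB2, NFKBIZ, RELA and SOD2 in DU145. Line, batch label, table and, for DU145, medium cannot be told apart in these differences.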

How the results depend on the processing

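Of the called members, 8 of 9 in C4-2B (not ICAM1), 20 of 24 in 22Rv1 (not BIRC2, NFKBIE, RELA and RELB) and 24 of 31 in DU145 (not CD83, NFKB2, NFKBIZ, RELA, RELB, SOD2 and TRAF2) kept their call in all 14 alternatives run for each line. The count of members that rose in 22Rv1, 5 in the main analysis, was 3 with library totals and 3 in 1 fit of all 18 libraries. In DU145, 5 members rose without knockdown 2, against 8 with all libraries. SOD2 in 22Rv1 changed sign with the level-dependent shift removed (-0.10, adjusted p = 0.0214, against 0.04 and 0.346). Leaving out 1 library at a time gave 3 to 4 rises and 5 falls in C4-2B, 4 to 6 and 18 to 19 in 22Rv1, and 5 to 10 and 19 to 23 in DU145, and 18 to 21, 22 to 24 and 20 to 22 differences for C4-2B and 22Rv1, C4-2B and DU145, and 22Rv1 and DU145. The replicate block gave 4 rises and 5 falls in C4-2B, 5 and 19 in 22Rv1, 8 and 24 in DU145, and 21, 24 and 22 differences; CCL20 in DU145 passed under it (-1.0, adjusted p = 0.02). Same-numbered libraries share only a number: their deviations correlated at -0.0401 to 0.0182 in C4-2B, -0.0184 to 0.0285 in 22Rv1 and 0.0354 to 0.294 in DU145, where not every library correlated best with its own number. Library totals moved the share of rises among all calls to 57.0% (46.6% with TMM) in C4-2B, 42% (49.5%) in 22Rv1 and 57.1% (50.5%) in DU145. Depth limits genes under 1 CPM in an arm, such as IL6, CSF2 and TNF. In the tests between lines, calls that did not hold in all 17 alternatives were IL18 and LTB (C4-2B and 22Rv1), IKBKE, IL11, LTB and RELA (C4-2B and DU145) and IL11 and SOD2 (22Rv1 and DU145). The causes of these changes were not tested.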
